A study of Mus musculus with 18 samples.

Results

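The 10 genes described here mark what a dentate granule cell is and where along the hippocampus it lies. Prox1, Dsp, Calb1, C1ql2, C1ql3 and Tdo2 are 6 genes known as markers of granule cells of the dentate gyrus. Lct is a gene of dorsal granule cells, and Trpc6, Grp and Nr2f2 are 3 genes of the ventral pole. The 10 genes were chosen for these known roles and not by a rule on their measured values, but with earlier results of these data known. All 10 were among the 17421 genes with enough counts to be tested, of 34620 genes listed. Expression was read by RNA-Seq in the microdissected ventral dentate gyrus of adult male Swiss Webster mice aged 8 to 12 weeks, with 2 libraries in each of 3 groups. Each library had between 26358165 and 33727936 reads assigned to genes. All animals carried the intact gene of the serotonin 1A receptor. WT males had WT mothers in a lineage bred in parallel. F1 males were the WT offspring of mothers and fathers that were both heterozygous for that receptor (5HT1A-/+). Their litters also held heterozygous and knockout pups. F2 males were born to F1 females mated with WT males, so that their mothers were WT and their grandmothers 5HT1A-/+. The animals came from several litters, and the number pooled in each library is not given in the sources used here. The p-values therefore measure only the spread between these libraries, which may be partly technical.

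Granule cells are the principal excitatory neurons of the dentate gyrus. They receive input from the entorhinal cortex and send mossy fibres to hilar mossy cells and to CA3. Their identity is held by the homeobox factor Prox1, and their gene expression is graded along the long axis of the hippocampus, whose dorsal end is tied mainly to spatial memory and whose ventral end is tied to anxiety and stress responses. The comparison of F1 and F2 with WT asks whether a receptor-deficient mother or grandmother leaves a lasting change in these cells. The fathers of F1 were heterozygous as well, and their part cannot be told apart here. The marker genes describe the tissue in which that question was asked.

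Only Trpc6 passed the threshold in either comparison with WT, and it fell in both. Expression is given in CPM, counts scaled to library size with TMM factors, and groups as means ± SD of 2 libraries. Groups were compared with edgeR's exact test over all 17421 genes, p-values carry a Benjamini-Hochberg adjustment, and a gene was called at an adjusted p under 0.01. In F1 this called 1 of the 10 genes, beside 12.3% of all tested genes. In F2 it also called 1 of the 10, beside 12% of all. Falls alone made up 8.54% of all genes in F1 and 8.10% in F2. A share of 1 in 10 was thus near the background in both groups. The 2 WT libraries serve both comparisons, so the fall of Trpc6 in F2 does not stand apart from its fall in F1. In bulk tissue, fewer cells of a type and less RNA per cell cannot be told apart.

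**Figure D1:**
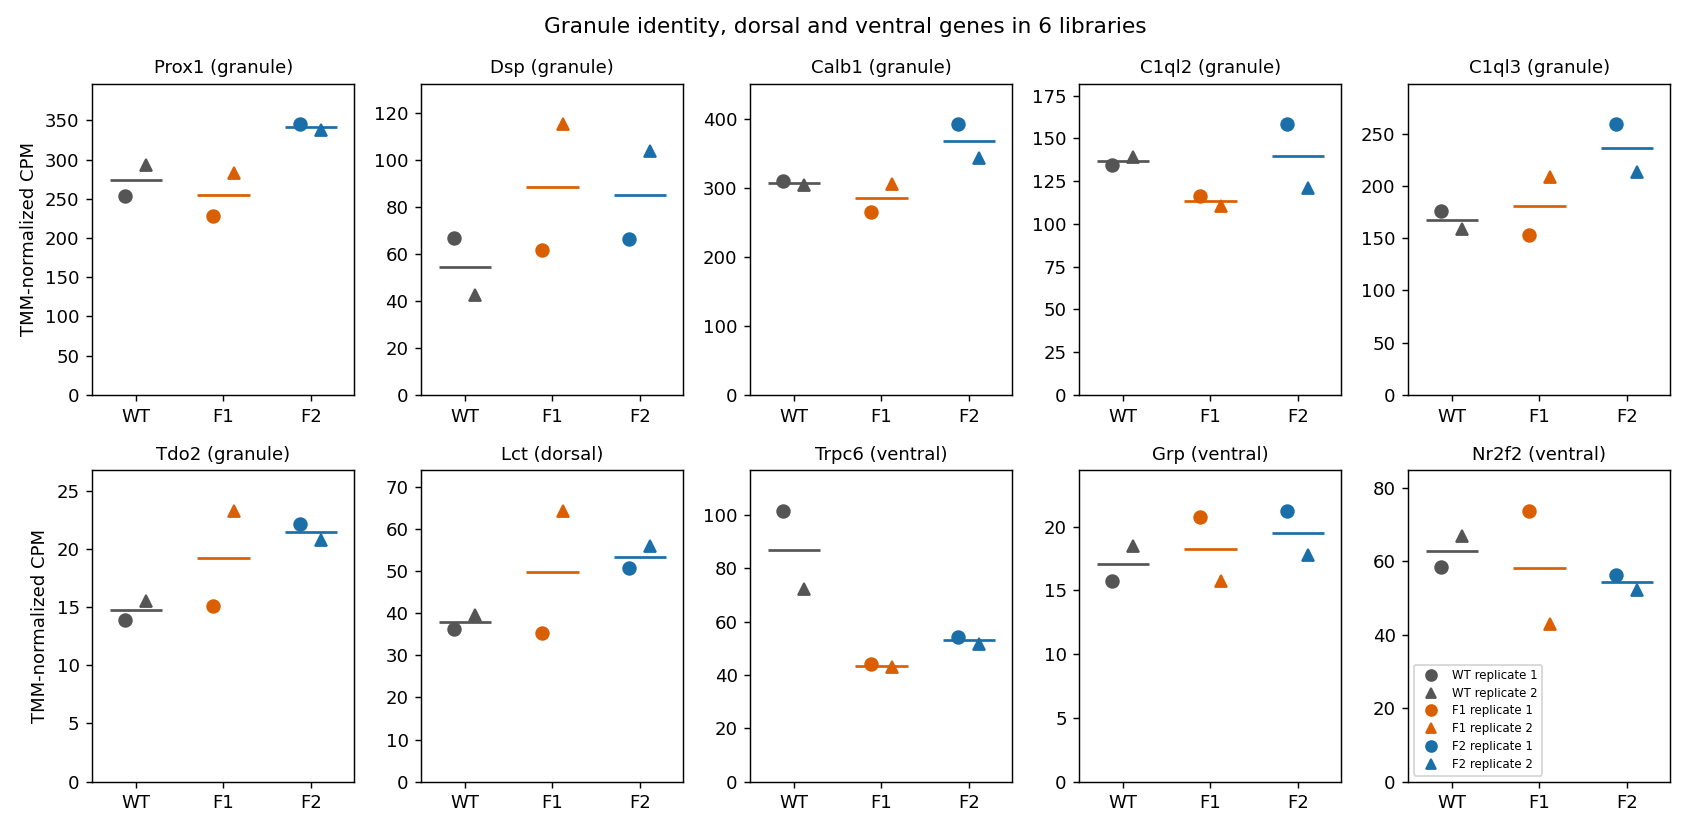
Expression of the 10 genes in each library, with CPM on the vertical axis and the groups WT, F1 and F2 on the horizontal axis. Points are libraries and bars are the means of 2 libraries. Trpc6 stood between 72.1 and 102 CPM in WT and between 42.9 and 54.4 CPM in F1 and F2, and the F1 libraries lay far apart for Dsp, Lct and Nr2f2.

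Trpc6 encodes a calcium-permeable cation channel that opens in response to diacylglycerol, a product of phospholipase C signalling. The gene lies at chr9:8544432-8680565 on the plus strand of mm9. It had 102 and 72.1 CPM in WT, against 44.1 and 42.9 in F1 and 54.4 and 51.6 in F2. Both F1 and both F2 libraries lay below both WT libraries, and the F1 libraries also lay below those of F2. Its mean was 86.8 ± 20.8 CPM in WT, against 43.5 ± 0.820 in F1 and 53.0 ± 1.92 in F2 (SD, n = 2 each).

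In F1, Trpc6 fell 2.00-fold, a log2 fold change of -0.998 with a standard error of 0.15 (adjusted p = 4.92e-09, edgeR's exact test). In F2 it fell 1.64-fold, a log2 fold change of -0.71 with a standard error of 0.15 (adjusted p = 7.23e-05, edgeR's exact test). The quasi-likelihood test of edgeR also called both falls. Its adjusted p was 0.00117 in F1 and 0.00738 in F2. WT replicate 1 had 1.41 times the level of WT replicate 2, a larger gap than between the libraries of F1 (1.03 times) or of F2 (1.05 times). Without WT replicate 1 the log2 fold change was -0.73 in F1, which kept its call, and -0.44 in F2, which did not (adjusted p = 0.0330, edgeR's exact test). The call in F2 was also missed without F2 replicate 2, at a log2 fold change of -0.67 (adjusted p = 0.0161, edgeR's exact test). F2 stood 0.29 above F1 on the log2 scale, with a 95% interval of -0.01 to 0.58, and this difference was not called (adjusted p = 0.617, edgeR's exact test). The share of unique reads that matched no gene was also highest in WT, at 17.7% and 20.7%, against 13.8% and 12.2% in F1 and 13.9% and 17.4% in F2, and its part in the values of Trpc6 was not tested.

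The promoter of Trpc6, the ventral gene that fell, and that of Lct, the dorsal gene set against it, are shown as the 250 bases before the RefSeq start on GRCm38.p6, a later build than the mm9 of the counts. Windows of 8 of the 10 genes were searched, all but Calb1 and Grp. The 4 motifs were searched on both strands were TGACG (the core of a cyclic AMP response element), AGGTCA (bound by nuclear receptors), GGGCGG (the GC box) and TATAAA (the TATA box). The first pair share the letters TGAC on 1 strand, and no matches in the windows of the 8 genes overlapped. Capitals mark the only match in the pair, TGACG at position -103 from the start of Trpc6. The Trpc6 window is chr9:8543892-8544141, plus strand, and that of Lct is chr1:128328319-128328568, minus strand.
Trpc6: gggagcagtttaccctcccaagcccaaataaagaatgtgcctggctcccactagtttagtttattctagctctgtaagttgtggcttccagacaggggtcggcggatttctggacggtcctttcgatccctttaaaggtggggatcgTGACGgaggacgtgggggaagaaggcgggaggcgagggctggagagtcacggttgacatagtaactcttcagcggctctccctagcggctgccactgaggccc
Lct: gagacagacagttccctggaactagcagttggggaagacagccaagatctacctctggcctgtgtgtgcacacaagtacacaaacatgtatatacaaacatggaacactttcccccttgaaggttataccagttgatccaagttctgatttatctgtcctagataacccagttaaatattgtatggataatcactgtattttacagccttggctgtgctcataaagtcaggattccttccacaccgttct
The Trpc6 window held 12 CpG sites at a GC content of 56.4%, and that of Lct held 1 CpG site at 42.8%, while the median over all 32851 windows was 6 CpG sites. TGACG was in 17.8% of all windows, AGGTCA in 14.0%, GGGCGG in 32.7% and TATAAA in 12.4%. GC boxes were also found in the windows of Prox1, Dsp and C1ql3, TATA boxes in those of Prox1 and Tdo2, and the reverse complement of AGGTCA in that of Tdo2. These matches describe letters in a window and were not set against expression.

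Grp and Nr2f2, the other ventral genes, did not follow Trpc6. Grp encodes gastrin-releasing peptide, a bombesin-like neuropeptide, and lies on mm9 chromosome 18 from 66032474 to 66046232. It had 15.7 and 18.5 CPM in WT, against 20.8 and 15.7 in F1 and 21.2 and 17.7 in F2, and the 3 groups overlapped. Its log2 fold change was 0.09 in F1, with a 95% interval of -0.26 to 0.45, and 0.19 in F2, with an interval of -0.17 to 0.55. Nr2f2 encodes COUP-TFII, an orphan nuclear receptor of the ventral and caudal hippocampus that is also made by many interneurons, and lies at chr7:77496832-77511621 on the minus strand. It had 58.4 and 67.0 CPM in WT, against 73.6 and 42.8 in F1 and 56.3 and 52.2 in F2. The F1 libraries lay on either side of all the others, and both F2 libraries lay below both WT libraries. The log2 fold change of Nr2f2 was -0.11 in F1 (interval -0.49 to 0.28) and -0.21 in F2 (interval -0.59 to 0.18), and neither was called.

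Lct, the dorsal gene, encodes lactase-phlorizin hydrolase, best known from the small intestine, and lies at chr1:130181333-130224895 on the minus strand of mm9. It had 36.4 and 39.5 CPM in WT, against 35.4 and 64.3 in F1 and 50.7 and 55.9 in F2. F1 replicate 1 was the lowest and F1 replicate 2 the highest of all 6 libraries, a 1.82-fold gap, and both F2 libraries lay above both WT libraries. The log2 fold change was 0.39 ± 0.21 (SE) in F1 (adjusted p = 0.174, edgeR's exact test) and 0.49 ± 0.21 (SE) in F2 (adjusted p = 0.0782, edgeR's exact test). Neither comparison passed the threshold.

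The balance of dorsal and ventral genes was read within each library as log2 of Lct over the geometric mean of Trpc6, Grp and Nr2f2. It was -0.32 and -0.18 in WT, -0.20 and 1.07 in F1, and 0.34 and 0.62 in F2. Both F2 libraries stood above WT, by 0.73 on average, while 1 F1 library lay among the WT values and the other was the highest of all. Over the arithmetic mean, an alternative added after seeing the data, the ratio was -0.69 and -0.41 in WT, -0.38 and 0.93 in F1, and 0.21 and 0.46 in F2, and F1 replicate 1 lay just above WT. Against Trpc6 alone the log2 ratio was -1.48 and -0.87 in WT, -0.32 and 0.58 in F1, and -0.10 and 0.11 in F2, so that all 4 libraries of F1 and F2 lay above WT. Against Grp alone it was 1.21 and 1.09 in WT, 0.77 and 2.03 in F1, and 1.26 and 1.66 in F2. Against Nr2f2 alone it was -0.68 and -0.76 in WT, -1.06 and 0.59 in F1, and -0.15 and 0.10 in F2. Of the ratios to a single gene, only that to Trpc6 kept F1 apart from WT. With 2 libraries against 2, the smallest 2-sided p of an exact permutation test is 0.333, and no test was made. The balance rests on Lct as the only dorsal gene of the set. Log2 fold changes of 4 other dorsal genes (Gsg1l, Spata13, Stra6 and Wfs1) had a median of -0.15 in F1, from -0.40 to 0.09, and of 0.06 in F2, from -0.42 to 0.27. Those of 2 other ventral genes (Htr2c and Dcn) were above 0 in F2, with a median of 0.50, and on either side of 0 in F1, with a median of 0.04. None of these 6 genes was called by edgeR's exact test, and the lowest adjusted p was 0.0621 in F1, for Stra6, and 0.0406 in F2, for Htr2c.

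**Figure D2:**
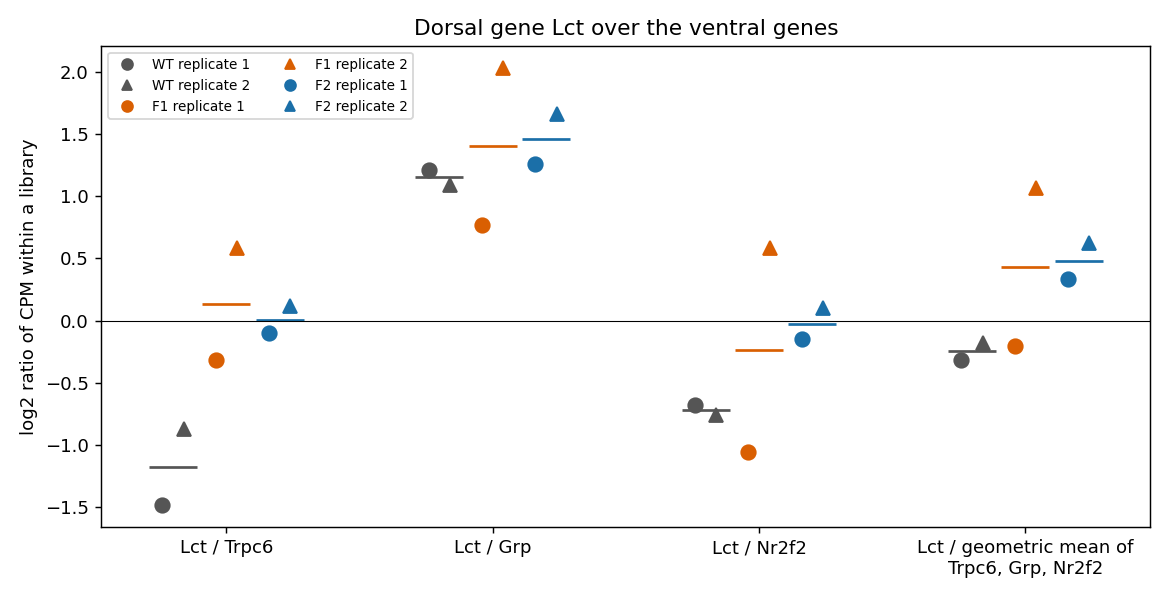
Balance of the dorsal gene Lct and the ventral genes in each library, as log2 of the ratio of CPM values on the vertical axis, for Lct over the geometric mean of all 3 ventral genes and over each alone. Points are libraries, grouped by WT, F1 and F2. The F2 libraries lay above WT in all 4 ratios, and the F1 libraries fell on both sides of WT in the ratios to Grp and to Nr2f2.

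None of the 6 granule identity genes was called in either comparison with WT by edgeR's exact test. At an unadjusted p under 0.05 there were 2 of them in F1, beside 32.6% of all tested genes, and 5 in F2, beside 32.4%. The quasi-likelihood test called none in either group, while DESeq2 called C1ql3 in F2. The median log2 fold change of the 6 genes was 0.01 in F1, where 3 were above 0. In F2 all 6 were above 0, with a median of 0.41, while the medians over all tested genes were 0.01 in F1 and below 0.01 in size in F2. In 4 of the 6, both F2 libraries lay above both WT libraries, as they did for 31.0% of all genes. The 6 genes were read in the same libraries and are not separate observations. Pearson's r of their log2(CPM + 0.5) over the 6 libraries ran from -0.58 (Dsp and C1ql2) to 0.90 (Prox1 and Calb1).

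Prox1 encodes the homeobox factor that specifies granule cells over CA3 neurons, and lies at chr1:191945660-191994559 on the minus strand of mm9. It had 254 and 293 CPM in WT, against 228 and 283 in F1 and 345 and 338 in F2. F1 overlapped WT, and both F2 libraries lay above the other 4. The log2 fold change was -0.10 ± 0.13 (SE) in F1 and 0.32 ± 0.13 (SE) in F2 (adjusted p = 0.0698 in F2, edgeR's exact test). Its exons share 133 bases with the lincRNA Gm17566 on the opposite strand, and the library kit does not keep strand.

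Calb1 encodes calbindin, the calcium buffer of mature granule cells, at chr4:15808411-15835211 on the plus strand. It had 310.1 and 304 CPM in WT, against 265 and 306 in F1 and 392 and 343 in F2. The WT libraries differed by a factor of 1.02, and both F2 libraries lay above them. The log2 fold change was -0.11 ± 0.12 (SE) in F1 and 0.26 ± 0.12 (SE) in F2 (adjusted p = 0.1249 in F2, edgeR's exact test).

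C1ql2 and C1ql3 encode secreted C1q-like proteins that granule cells release at mossy fibre synapses, where they help to place glutamate receptors. C1ql2 lies at chr1:122237159-122239748 on the plus strand and C1ql3 at chr2:12925084-12933374 on the minus strand. C1ql2 had 135 and 139 CPM in WT, against 117 and 111 in F1 and 158 and 121 in F2. Both F1 libraries lay below WT, and the F2 libraries lay on either side of WT. Its log2 fold change was -0.27 ± 0.14 (SE) in F1 (adjusted p = 0.153, edgeR's exact test) and 0.03 ± 0.14 (SE) in F2.

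C1ql3 had 176 and 159 CPM in WT, against 153 and 208 in F1 and 259 and 213 in F2. F1 spanned WT, and both F2 libraries lay above the other 4. The log2 fold change was 0.11 ± 0.15 (SE) in F1 and 0.49 ± 0.15 (SE) in F2. The F2 value just missed the threshold (adjusted p = 0.0109, edgeR's exact test), and DESeq2 gave an adjusted p of 0.00688.

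Dsp encodes desmoplakin, the plaque protein that ties desmosomes to intermediate filaments, and in the hippocampus it marks granule cells. It lies at chr13:38243197-38290446 on the plus strand and shares 360 exon bases with Gm10129 on the opposite strand. It had 66.8 and 42.5 CPM in WT, against 61.9 and 115 in F1 and 66.4 and 104 in F2. Libraries of 1 group differed by 1.56 to 1.86 times, and all 3 groups overlapped. The fitted coefficient of variation of Dsp was 18.8%, the highest of the 10 genes and above that of 86.7% of all tested genes. Its log2 fold change was 0.70, with a 95% interval of 0.16 to 1.23, in F1 (adjusted p = 0.0538, edgeR's exact test) and 0.64 in F2 (adjusted p = 0.0814, edgeR's exact test).

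Tdo2 encodes tryptophan 2,3-dioxygenase, an enzyme that opens the kynurenine route of tryptophan breakdown and is known mainly from liver. It lies at chr3:81761012-81780124 on the minus strand. It had 13.9 and 15.6 CPM in WT, against 15.1 and 23.3 in F1 and 22.2 and 20.8 in F2. F1 replicate 1 lay among the WT values and F1 replicate 2 was the highest library, and both F2 libraries lay above WT. The log2 fold change was 0.38 ± 0.20 (SE) in F1 (adjusted p = 0.162, edgeR's exact test) and 0.54 ± 0.20 (SE) in F2 (adjusted p = 0.0346, edgeR's exact test).

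**Figure D3:**
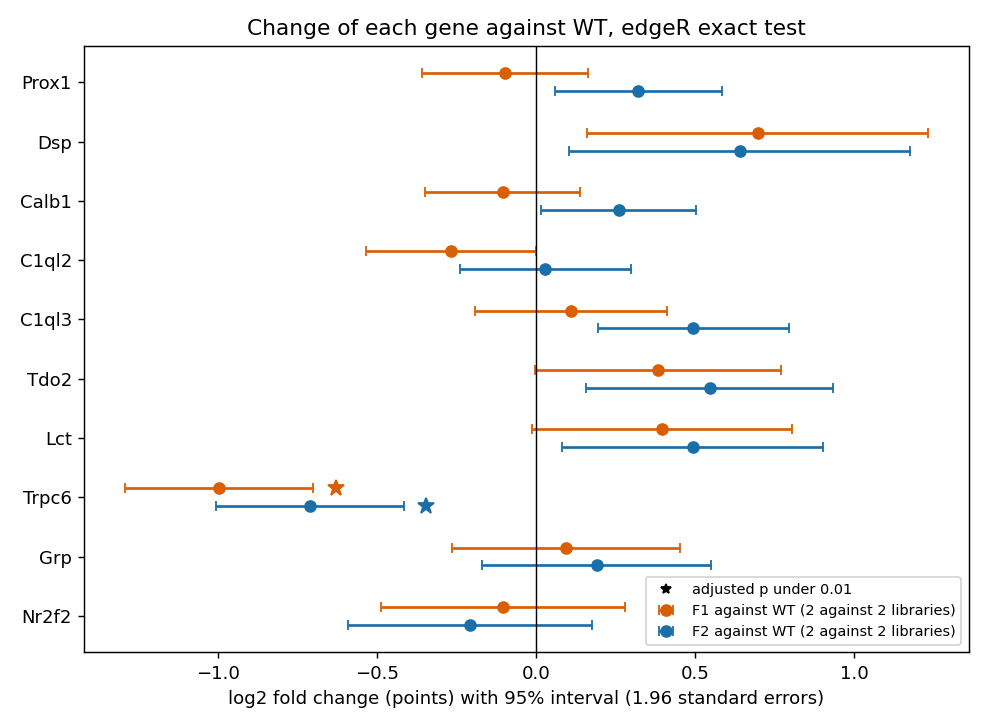
Log2 fold changes of the 10 genes in F1 and in F2 against WT on the horizontal axis, with 1 gene per row. Points are the values from edgeR's exact test and bars their 95% intervals. Trpc6 stands alone to the left in both, at -0.998 and -0.71, and the 6 granule genes lie to the right of 0 in F2.

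Without overlap between the libraries, 2 of the 10 genes in F1 (Trpc6 and C1ql2) lay below WT, beside 60.4% of all genes that did not overlap in either direction. In F2 the count was 7 of 10, 5 above WT and 2 below, beside 63.0% of all genes. Between F2 and F1, 5 of the 10 did not overlap, all higher in F2 (Prox1, Calb1, C1ql2, C1ql3 and Trpc6), beside 39.1% of all genes. None of the 10 was called between F2 and F1 by edgeR's exact test, which called 0.740% of all genes there. At an unadjusted p under 0.05 there were 4, beside 8.64% of all genes, and neither the quasi-likelihood test nor DESeq2 called any. The largest of these differences was that of Prox1, 0.42 ± 0.13 (SE) on the log2 scale (adjusted p = 0.0924, edgeR's exact test).

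The F1 libraries stood apart from each other in 4 genes. F1 replicate 2 exceeded F1 replicate 1 by 1.86 times in Dsp, 1.82 times in Lct and 1.54 times in Tdo2, while Nr2f2 was 1.72 times higher in replicate 1. Trpc6 did not move with them, at 44.1 and 42.9 CPM. Without F1 replicate 1, 5 of the 10 genes were called in F1, beside 11.3% of all genes. These were Dsp with a log2 fold change of 1.09, Lct with 0.77, Tdo2 with 0.67, Nr2f2 with -0.54 and Trpc6 with -1.005. Without F1 replicate 2, Trpc6 alone was called, and the values were 0.19 for Dsp, -0.09 for Lct, 0.05 for Tdo2 and 0.24 for Nr2f2. In these fits the remaining F1 library is assumed to vary like the libraries of the other groups. Against F1 replicate 1 alone, F2 was higher by 0.59 in Prox1 (adjusted p = 0.00751, edgeR's exact test) and by 0.62 in C1ql3 (adjusted p = 0.00945, edgeR's exact test). Those 2 genes were called, beside 1.24% of all genes.

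**Figure D4:**
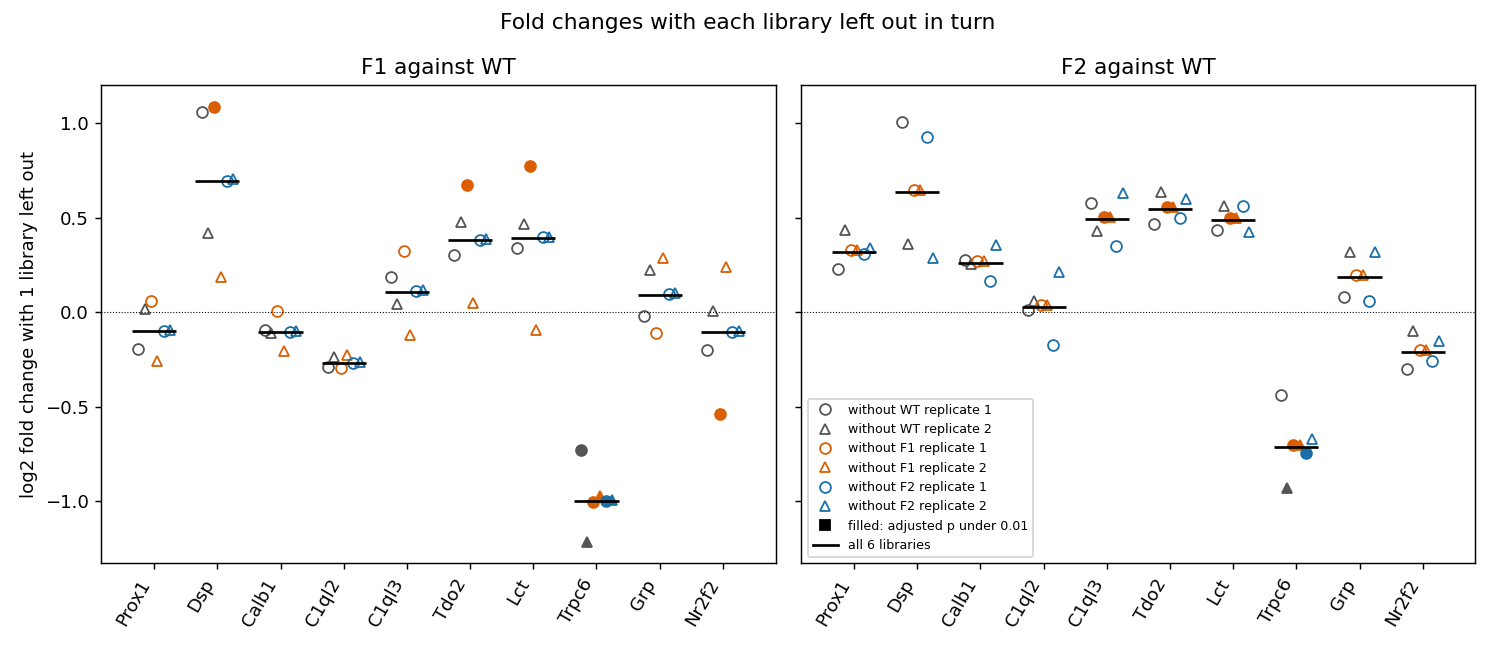
Log2 fold changes of the 10 genes against WT on the vertical axis, with all libraries and with each library left out in turn. Filled points passed the threshold of 0.01 and open points did not. In F1 the values of Lct ran from -0.09 to 0.77 and those of Nr2f2 from -0.54 to 0.24, while Trpc6 stayed between -1.21 and -0.73.

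Markers of other cell types also differed between libraries. The summed level of 9 interneuron genes was 678 and 749 CPM in WT, against 909 and 660 in F1 and 752 and 838 in F2. It was highest in F1 replicate 1, where Nr2f2 was also highest. In F2 the sum was higher in replicate 2, but Nr2f2 was higher in replicate 1. Slc32a1, the vesicular GABA transporter, rose in F1 and F2, and Gad2, a GABA-synthesizing enzyme, rose in F2. These were the only called genes of the 9, and the log2 fold changes of the list were -0.15 to 0.65 for F1, while F2 gave -0.39 to 0.61. Sums of 4 astrocyte genes were 447 and 526 CPM in WT, against 538 and 781 in F1 and 831 and 662 in F2. In F1 the higher sum was in replicate 2, as for Lct, Dsp and Tdo2. In F2 the higher sum was in replicate 1, as for Tdo2 but not for Lct or Dsp. Of the astrocyte list, 1 gene rose in F1 and 3 rose in F2, and the quasi-likelihood test called only Aldh1l1 in F2 (adjusted p = 0.00858). Over all tested genes, 3.77% were called higher in F1 and 3.86% in F2, and 8.54% were called lower in F1 (edgeR's exact test). Sums of 6 oligodendrocyte genes were 1063 and 1939 CPM in WT, against 2866 and 2160 in F1 and 1475 and 2794 in F2. Their log2 fold changes in F1 were 0.65 to 0.89, with Cnp and Mag called, and in F2 0.44 to 0.82, with Cnp called. The quasi-likelihood test called none of them in either group. Sums of 3 mossy cell genes were 217 and 269 CPM in WT, against 204 and 134 in F1 and 207 and 210.4 in F2. The part of these cells in the values of the 10 genes was not tested. Genes of CA fields summed to 524 to 643 CPM over 8 genes. Of the choroid plexus list, Kl made up nearly all of the summed 14.1 to 18.9 CPM, Ttr stood at 0.187 to 1.10 CPM, and Folr1, Clic6 and Kcnj13 had too few counts to be tested. The sums were 104 to 127 CPM for immature granule cells, 89.5 to 139 CPM for microglia, 85.7 to 112 CPM for endothelium, 65.8 to 94.1 CPM for pericytes and 42.9 to 100.5 CPM for meninges, lowest in both F1 libraries, where Lum and Ogn were called lower. The quasi-likelihood test kept the call of Ogn but not that of Lum.

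Levels of different genes can be compared only per length of exon. Over the 6 libraries the mean level was 78.7 CPM per kb for C1ql3, 70.2 for Prox1, 66.1 for Calb1 and 65.1 for C1ql2, and the ranges of these 4 granule genes overlapped. Grp followed at 17.3 CPM per kb, Nr2f2 at 12.01, Dsp at 7.91, Lct at 7.34 and Tdo2 at 4.78. The ranges of Grp and Nr2f2 overlapped, as did those of Nr2f2 with Dsp and Lct, and of Lct with Tdo2. Trpc6 stood at 21.9 CPM per kb, but its gene model in GENCODE M1 is nearly all coding sequence (2790 of 2793 exon bases), so that its place in this order is uncertain. The granule genes Prox1, Calb1, C1ql2 and C1ql3 were thus the most abundant of the set, and dorsal Lct was detected in every library of this ventral dissection.

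Of 11 other granule genes, none rose and 1 fell in F1, and 2 rose and 1 fell in F2, beside rises in 3.77% of all tested genes in F1 and 3.86% in F2, with a median log2 fold change of 0.03 in F1 and 0.42 in F2. Fam163b rose by 0.56 (adjusted p = 0.00113, edgeR's exact test) and Tiam1, an activator of the GTPase Rac, by 0.44 (adjusted p = 0.00656, edgeR's exact test) in F2. Plk5, a polo-like kinase, fell by 0.61 in F1 and by 0.47 in F2 on the log2 scale. Of these calls, the quasi-likelihood test kept only the fall of Plk5 in F1 (adjusted p = 0.00765). It gave 0.0152 for Fam163b, 0.0250 for Tiam1 and 0.0245 for Plk5 in F2. The summed level of the 11 genes was 1942 and 1988 CPM in WT, against 1709 and 2135 in F1 and 2636 and 2324 in F2. These are the same libraries as for the 6 granule identity genes.

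Among partners and relatives of the granule genes, the C1q-like family and its receptors gave 1 call in 7 tested genes. Bai1, an adhesion receptor of the brain, fell by 0.47 in F1 and by 0.49 in F2 on the log2 scale. Bai3, the receptor that binds C1q-like proteins, had log2 fold changes of 0.12 and 0.28 and was not called, C1ql1 had 6.54 to 8.87 CPM and was not called, and C1ql4 had at most 6 counts in a library. Among 8 tested desmosome genes, plakoglobin (Jup) rose by 0.60 and Pkp4 by 0.39 in F1. Both were also higher in F2, by 0.40 and 0.20, but were not called there. In F2 the desmocollin Dsc3, at 1.21 and 1.87 CPM in WT, rose by 1.16 and the plakophilin Pkp2 fell by 0.59. Calb2, which encodes the calcium buffer calretinin, had log2 fold changes of -0.47 and -0.15 and was not called. In tryptophan breakdown, 8 genes were tested. Acmsd, a decarboxylase of the kynurenine route, fell by 1.04 in F1 and by 1.09 in F2 from 2.35 and 2.08 CPM in WT, and Got2, a mitochondrial aminotransferase, rose by 0.47 in F1. Ido1, the other gateway enzyme beside Tdo2, had at most 8 counts in a library and was not tested. Prox2, the paralog of Prox1, fell by 1.19 in F1 and by 1.17 in F2, from 6.56 and 4.22 CPM in WT. The quasi-likelihood test made none of the calls of this paragraph. Its adjusted p for them ran from 0.0104 (Got2 in F1) to 0.0354 (Bai1 in F1).

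Of 6 other Trpc channels, Trpc2, at 43.8 and 35.8 CPM in WT, fell by 0.71 in F1 (adjusted p = 8.32e-05, edgeR's exact test) and by 0.89 in F2 (adjusted p = 4.52e-07, edgeR's exact test), and the others were not called. Of 4 other bombesin-like peptides and receptors, Nmb, the gene of neuromedin B, fell by 0.81 in F1 and by 1.10 in F2. Grpr, the receptor of gastrin-releasing peptide, stood at 0.264 to 0.557 CPM. Nr2f1, the paralog of Nr2f2, had log2 fold changes of -0.07 in F1 and 0.00 in F2, and neither it nor Nr2f6 was called. Among 4 other beta-galactosidase genes, Glb1l fell by 1.00 in F1 and by 0.74 in F2. The quasi-likelihood test missed the falls of Nmb in F1 (adjusted p = 0.0118) and of Glb1l in F2 (adjusted p = 0.0121). It kept the other falls named in this paragraph.

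Genes whose levels ran most like those of Trpc6 were sought by Pearson's r of log2(CPM + 0.5) over the 6 libraries among the 10064 genes that averaged 10 CPM or more. The nearest were Pigo, an enzyme of glycosylphosphatidylinositol anchor synthesis (r = 0.997), Pnck, a calcium-dependent kinase (r = 0.996), and Ubr2, a ubiquitin ligase (r = 0.995). Pigo had 38.4 and 29.8 CPM in WT, against 20.5 and 19.6 in F1 and 24.0 and 21.8 in F2. With 6 libraries and so many genes these values only describe the pattern.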

How the data were processed

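Raw read counts per gene symbol, deposited by the authors for 6 RNA-Seq libraries, were analysed. The 12 bisulfite samples were not used here. Tissue was microdissected from cryosections of 200 µm, and single-end reads of 50 bp were aligned by the authors to mm9 with TopHat, without new junctions, and counted with HTSeq (intersection-strict), which drops reads that reach beyond annotated exons. Reads that matched no gene were 12.2% to 20.7% of unique reads, most in WT, and with the other summary lines of the counter they were left out. At this depth the number of libraries limits precision.

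Counts were filtered with filterByExpr, scaled by TMM and tested by exactTest of edgeR 4.0.16 (R 4.3.3), with common and tagwise dispersion over all 6 libraries and Benjamini-Hochberg adjustment, at a threshold of 0.01. The common dispersion corresponded to a coefficient of variation of 10.6%. The function used by the authors is not named in their methods. Standard errors follow from mean counts and tagwise dispersion by the delta method, and 95% intervals are 1.96 standard errors either way. The 10 genes, the related lists and the marker lists were chosen with earlier results of these data known. All 10 genes are named, and of the related lists those called in F1 or F2 and the closest paralog or receptor, except for a result that is not reported here. Genes named from the marker lists were named after their values were seen. As alternatives, the quasi-likelihood test and the likelihood-ratio test of edgeR were run without and with a replicate block, beside DESeq2 1.42.0, other scalings, filters and dispersions, a threshold of 0.05, each library left out, and a crossed block and an arithmetic mean of the ventral genes added after seeing the data. Positions and exon lengths come from GENCODE M1 on mm9, promoters from RefSeq. Scripts were tested on simulated counts. Python 3.11.15 with pandas 2.3.3 and matplotlib 3.10.9 gave tables and plots.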

Additional observations from a re-analysis of the deposited data

How the results depend on the processing

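Of 360 recomputed values of the 10 genes against WT, 331 kept their direction and their side of the threshold, 17 became called, 2 lost a call and 10 turned direction. Trpc6 was called in F1 in all 18 alternatives and in F2 in 16 of them, with the exceptions given beside its values. The values that turned direction had not been called and did so only with a library left out. With each library left out in turn, log2 fold changes in F1 ran from -0.26 to 0.062 for Prox1, -0.21 to 0.0064 for Calb1, -0.12 to 0.33 for C1ql3, -0.092 to 0.77 for Lct, -0.11 to 0.29 for Grp and -0.54 to 0.24 for Nr2f2, and in F2 from -0.17 to 0.22 for C1ql2. In F2, 2 of the 10 genes were called with DESeq2, beside 1670 of 26953 genes, and 2 with upper-quartile factors, beside 2135 of 17421. At a threshold of 0.05 there were 3, beside 3606 of 17421. With dispersion from the 2 groups compared there were 4, beside 2568 of 17421. The added genes were C1ql3, Tdo2 and Lct. Leaving out a library gave 1 to 5 called genes in F1, 0 to 4 in F2 and 0 to 2 between F2 and F1. The mean log2 ratio of Lct to the ventral genes in F2 minus WT was 1.18 with Trpc6 alone and 0.30 with Grp alone.

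Over all tested genes, the main counts of 2144 in F1, 2084 in F2 and 129 between F2 and F1 became 1029, 997 and 2 with the quasi-likelihood test and 3623, 3606 and 230.0 at a threshold of 0.05. Libraries left out gave 988 to 2043, 703 to 2585 and 52 to 223. Replicate numbers were shared by the groups. Deviations of same-numbered libraries had correlations of -0.01 (WT and F1), -0.09 (WT and F2) and -0.23 (F1 and F2). Each group gives only a single difference between replicates, so these values cannot tell whether libraries of different groups were processed together. The quasi-likelihood test with the replicate block called 848, 758 and 9 genes, and the block changed no call of the 10 genes. With the F2 numbers exchanged, a likelihood-ratio test with the crossed block, chosen after seeing the data, called 3 of the 10 genes and 2752 of all genes in F2, and 0 of the 10 and 233 of all genes between F2 and F1. The cause of these differences was not tested.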

Other observations

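The ratio of the paralogs C1ql3 and C1ql2 was chosen after the values were seen. The log2 ratio of their CPM values within a library, which does not depend on the scaling of libraries, was 0.39 and 0.19 in WT, 0.40 and 0.91 in F1, and 0.71 and 0.82 in F2. All 4 libraries of F1 and F2 lay above both WT libraries, but F1 replicate 1 exceeded WT replicate 1 by under 0.01. No test was made with 2 libraries against 2.

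Among the markers of other hippocampal cells, the mossy cell gene Csf2rb2, a beta chain of cytokine receptors, had 14.4 and 17.1 CPM in WT, 5.45 and 3.24 CPM in F1, and 3.18 and 4.57 CPM in F2. It fell by 1.86 on the log2 scale in F1 (adjusted p = 2.63e-10, edgeR's exact test) and by 2.02 in F2 (adjusted p = 1.01e-11, edgeR's exact test). The other mossy cell genes of the list, Calb2 and Glipr1, were not called in either group. All 5 microglial genes of the list had log2 fold changes above 0 in F1 and F2, down to 0.028 for Aif1 in F2. None was called in F1 by edgeR's exact test, and 3 were called in F2, where 3.86% of all tested genes were called higher. The quasi-likelihood test called none of the 5 in either group.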
